A study of Mus musculus with 5 samples.

Results

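Transcripts of 8 nicotinic acetylcholine receptor subunits were examined in tibialis anterior (TA) muscle libraries labelled as deleted for Nrip1, which encodes the coregulator RIP140, and in control libraries. The members were the rows named Chrna1, Chrnb1, Chrnd, Chrne and Chrng, which encode the subunits of the muscle endplate receptor, and Chrna2, Chrna4 and Chrna10, which encode neuronal subunits. All 8 were found among the 17015 rows of the deposited table. RNA-seq values were available for 3 WT control libraries and 2 libraries labelled skmNrip1-/-, all from sedentary male mice at 8 weeks of age. The labels call these groups Ctrl and Nrip1KO, and values below are given in replicate order. In the skmNrip1-/- line, Cre recombinase under the myogenin promoter, which is active in differentiating muscle fibers, is meant to delete floxed Nrip1. The floxed mice were C57BL/6J, and the mice carrying Cre were C57BL/6JN. Controls were Cre-negative littermates, so the groups also differ in whether Cre is present. The study's description of this comparison gives a larger group of skmNrip1-/- mice than the 2 libraries analysed here.

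The receptor at the motor endplate is a pentamer that opens when acetylcholine binds at the faces of its α1 subunits. In fetal and denervated muscle the pentamer holds the γ subunit, Chrng, along the whole fiber, whereas in adult innervated muscle the ε subunit, Chrne, takes the place of γ and receptors gather under the nerve terminal. The α1, β1 and δ subunits are shared by both forms. The neuronal α2 and α4 subunits normally pair with β subunits such as β2, Chrnb2, in brain and autonomic neurons. The α10 subunit pairs with α9, Chrna9, in the hair cells of the inner ear.

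The targeted gene ran against its label. The level of Nrip1 (ENSMUSG00000048490) was 4.64, 7.69 and 6.55 FPKM (fragments per kilobase of transcript, scaled to library size) in WT control TA, and 25.3 and 22.5 FPKM in TA labelled skmNrip1-/-. The table holds 1 value per gene, so fragments of the deleted exon cannot be separated from the rest, and all directions below rest on the labels. Absolute depth is not given. In genes with 1 annotated transcript, low values fell on whole multiples of a common step. At least 99.3% of them were within 0.1 of a whole number in every library. If FPKM was scaled to total fragments, the step gave depths of 0.822 to 1.11 relative to WT control replicate 1. That scaling is not stated and was not tested. Defining fiber transcripts were abundant in every library, and their 5-gene sum (Acta1, Ckm, Mylpf, Tnnt3, Myh4) ranged from 61306 to 85040 FPKM in WT control TA and was 58613 and 56607 FPKM in the libraries labelled skmNrip1-/-.

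Promoters of 4 subunits are shown because these genes represent the behaviors described below. Chrng and Chrna4 had higher values in the libraries labelled skmNrip1-/-, and Chrne and Chrna1 had overlapping values. Each sequence is from RefSeq on GRCm38.p6, runs 5′ to 3′ in the direction of transcription, and covers 250 bases before and 50 bases from the annotated start. The Chrng and Chrna4 windows lie inside the gene spans given below, which come from another annotation. Starts of these genes further upstream were not searched. Capitals mark E-boxes (CANNTG), the motif bound by myogenic factors such as MyoD and myogenin, and the N-box (CCGGAA, searched on both strands), a motif bound by ETS factors that is known from endplate genes.
Chrng, chr1:87205561-87205860, plus strand: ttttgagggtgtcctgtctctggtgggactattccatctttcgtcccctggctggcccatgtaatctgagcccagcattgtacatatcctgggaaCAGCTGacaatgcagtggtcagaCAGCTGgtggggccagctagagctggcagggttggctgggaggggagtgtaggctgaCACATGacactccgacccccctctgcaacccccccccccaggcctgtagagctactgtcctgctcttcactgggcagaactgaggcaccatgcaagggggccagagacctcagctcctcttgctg
Chrne, chr11:70619145-70619444, minus strand: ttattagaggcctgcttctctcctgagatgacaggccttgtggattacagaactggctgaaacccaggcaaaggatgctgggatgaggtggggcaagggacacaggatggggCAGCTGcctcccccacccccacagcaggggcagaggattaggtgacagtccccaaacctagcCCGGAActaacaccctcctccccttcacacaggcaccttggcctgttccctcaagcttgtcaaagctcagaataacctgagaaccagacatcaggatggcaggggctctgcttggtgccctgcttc
Chrna1, chr2:73580289-73580588, minus strand: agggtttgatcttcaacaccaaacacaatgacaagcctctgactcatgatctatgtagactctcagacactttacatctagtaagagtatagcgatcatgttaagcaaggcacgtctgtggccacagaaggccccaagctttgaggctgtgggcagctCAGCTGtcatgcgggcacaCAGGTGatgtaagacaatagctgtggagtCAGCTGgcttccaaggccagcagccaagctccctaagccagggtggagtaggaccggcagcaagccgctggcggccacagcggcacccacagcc
Chrna4, chr2:181039128-181039427, minus strand: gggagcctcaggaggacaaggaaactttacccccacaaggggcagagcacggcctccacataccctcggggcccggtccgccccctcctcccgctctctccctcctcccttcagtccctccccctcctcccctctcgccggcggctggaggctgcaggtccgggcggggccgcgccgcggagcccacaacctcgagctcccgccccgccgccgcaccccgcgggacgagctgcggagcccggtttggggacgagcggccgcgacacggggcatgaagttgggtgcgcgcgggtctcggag
Promoter sequences were matched for 6 of the 8 members, the others being Chrnd and Chrna2. Chrng held 3 E-boxes, with first bases at -155, -132 and -75 from the start, and 2 of them read CAGCTG. Chrna1 also held 3 E-boxes, at -92, -73 and -44, and Chrnb1 held 3. Chrne held 1 E-box at -138 and an N-box at -76, the only N-box found in the 6 windows. The Chrna4 window held neither motif, was 74.3% G and C, and held 3 GC boxes (GGGCGG on either strand). Across 32851 promoter windows of the same length, 72.3% held CANNTG, 16.3% CAGCTG, 14.9% CCGGAA and 35.7% GGGCGG, and the median G and C content was 52.7%. The half-site AGGTCA, to which nuclear receptors bind, was in none of the 6 windows and in 16.3% of all windows. A match is a description of letters and not evidence of a bound factor.

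**Figure D1:**
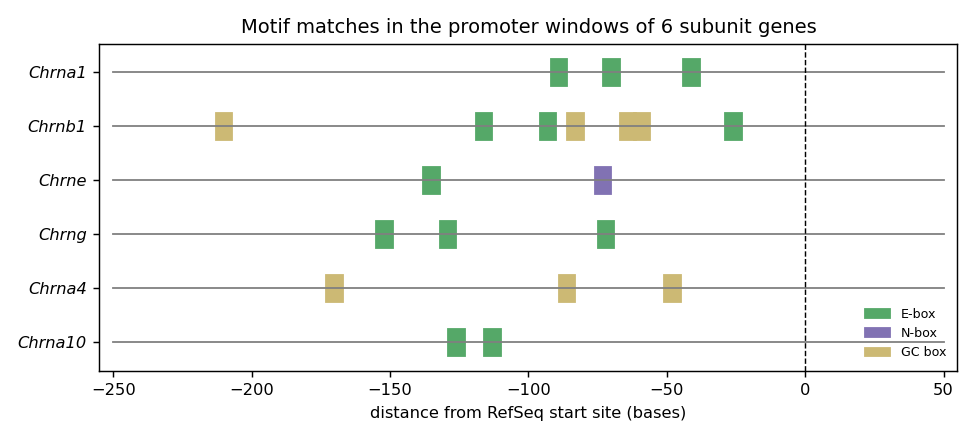
Motif matches in the promoter windows of 6 subunit genes. The x axis gives the distance in bases from the RefSeq start, and each block is a 6-base match to the E-box, N-box or GC box, on either strand. E-boxes lie upstream of 5 of the genes and the N-box only in Chrne, while Chrna4 shows GC boxes only. In Chrnb1, 2 of the GC boxes overlap by 1 base.

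The 5 endplate subunits were compared first. No endplate subunit was called between the groups, whereas Chrng, which lies below the level tested, was higher in both libraries labelled skmNrip1-/- than in every WT control library. The limma comparison used log2(FPKM + 0.1) of the 12148 genes whose mean reached 0.5 FPKM, and a gene counted as called where adjusted p was at most 0.05 and the fold change 1.2 or more. Of these genes 0.37% were called higher and 0.0823% lower. Of the 5 endplate subunits 4 were tested, and 0 were called, with 0 at an unadjusted p of 0.05 or less. Their median log2 fold change was 0.01, beside -0.00 over all genes tested.

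Chrnb1 (ENSMUSG00000041189, chromosome 11, 69784036 to 69795943 on GRCm38, minus strand) encodes β1 and had the highest level of the family. It stood at 20.4, 14.2 and 17.8 FPKM in WT control TA, and at 18.4 and 17.8 FPKM in the libraries labelled skmNrip1-/-. The latter lay inside the WT control range. Its log2 fold change was 0.06 (95% confidence interval -0.33 to 0.45, adjusted p = 0.921 from limma).

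Chrne (ENSMUSG00000014609, chromosome 11, 70614883 to 70619216, minus strand), the adult ε subunit, was the next in level. It was at 12.3, 8.27 and 8.33 FPKM in WT control TA and at 9.97 and 8.54 FPKM in the libraries labelled skmNrip1-/-, again inside the WT control range. The log2 fold change was -0.04 (95% confidence interval -0.51 to 0.44, adjusted p = 0.969 from limma).

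Chrna1 (ENSMUSG00000027107, chromosome 2, 73563215 to 73580338, minus strand) encodes α1, which carries the acetylcholine and α-bungarotoxin binding face. Its level was 2.62, 1.96 and 2.29 FPKM in WT control TA and 2.84 and 2.44 FPKM in the libraries labelled skmNrip1-/-. The groups overlapped, with a log2 fold change of 0.20 (95% confidence interval -0.21 to 0.62, adjusted p = 0.720 from limma). Within a library, Chrnb1 FPKM was 6.47 to 7.80 times that of Chrna1, although the assembled receptor holds more α1 than β1. This ratio was 7.80, 7.25 and 7.78 in WT control TA, and 6.47 and 7.26 in TA labelled skmNrip1-/-.

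Chrnd (ENSMUSG00000026251, chromosome 1, 87190607 to 87200070, plus strand), the δ subunit, was at 0.898, 0.879 and 0.933 FPKM in WT control TA and at 0.855 and 0.622 FPKM in the libraries labelled skmNrip1-/-. Both of the latter lay below every WT control library, and replicate 2 was further away. Libraries that do not overlap in either direction were found in 30.2% of the genes tested. The log2 fold change of Chrnd was -0.27 (95% confidence interval -0.82 to 0.27, adjusted p = 0.715 from limma), and this interval holds both a fall and a rise.

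Chrng (ENSMUSG00000026253, chromosome 1, 87204657 to 87212694, plus strand), the fetal γ subunit, begins 4586 bases beyond the end of Chrnd on the same strand. Its level was the lowest of the 8 genes in both groups, at 0.0410, 0.0298 and 0.0163 FPKM in WT control TA, and at 0.193 and 0.301 FPKM in TA labelled skmNrip1-/-. The groups did not overlap, which held for 27.7% of all 17015 rows in either direction and for 14.3% with the libraries labelled skmNrip1-/- higher. The ratio of group means was 8.502, from 0.0291 ± 0.0124 (SD, n = 3) to 0.247 ± 0.0763 FPKM (SD, n = 2). These values rest on few fragments. Taken at the longest transcript (2780 bases), the WT control values correspond to 4.99, 3.99 and 1.99 fragments, each within 0.1 of a whole number, and the others to 19.2 and 35.3 fragments. Because Chrng was under the minimum of 0.5 FPKM, it was not tested with the other genes. Without the minimum its log2 fold change was 1.41 (95% confidence interval 0.85 to 1.98), and it was not called (adjusted p = 0.120 from limma over 17015 rows).

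The balance of fetal and adult subunit was set within each library, where a scaling of the library cancels. Chrng made up 0.332%, 0.359% and 0.196% of the summed Chrng and Chrne FPKM in WT control TA, and 1.90% and 3.403% in TA labelled skmNrip1-/-. The adult subunit held nearly all of the sum in every library. The mean log2 ratio of Chrng to Chrne was -8.45 ± 0.48 (SD, n = 3) for WT control and -5.26 ± 0.61 (SD, n = 2) for the other group, a difference of 3.19. With 0.1 FPKM added to both genes the difference was 1.45, since the WT control values of Chrng lie below that amount. In a two-sided exact permutation test over libraries p was 0.2. That is the smallest value this test gives for 2 libraries against 3, because it doubles the p of a single direction.

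The 3 neuronal subunits were compared in the same way. Chrna4 rose in the libraries labelled skmNrip1-/-, Chrna2 had higher values there below the tested level, and Chrna10 was higher in 1 library only. Of the 3 neuronal subunits, 2 were tested, and 1 was called higher, beside 0.37% of all genes tested. Chrna4 passed the minimum through the libraries labelled skmNrip1-/-, since its WT control mean was below it.

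Chrna4 (ENSMUSG00000027577, chromosome 2, 181018380 to 181043546, minus strand), the α4 subunit of the main high-affinity nicotinic receptor of brain, was at 0.185, 0.272 and 0.146 FPKM in WT control TA. It was at 1.35 and 1.96 FPKM in TA labelled skmNrip1-/-, both above every WT control library, as were 15.8% of the genes tested. The ratio of group means was 8.23, from 0.201 ± 0.0642 (SD, n = 3) to 1.65 ± 0.435 FPKM (SD, n = 2). In limma the log2 fold change came to 2.54 (standard error 0.33, 95% confidence interval 1.76 to 3.32, adjusted p = 0.0403 from limma). Without the minimum, over all 17015 rows, the log2 fold change was also 2.54, with a limma adjusted p of 0.0438. At its longest transcript these values correspond to 30.7 to 62.5 fragments in WT control TA and to 229 and 397 in the libraries labelled skmNrip1-/-. Leaving out any 1 of the 5 libraries ended the call, with adjusted p from 0.0512 to 0.363 and log2 fold changes from 2.29 to 2.80.

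Chrna2 (ENSMUSG00000022041, chromosome 14, 66135039 to 66152948, plus strand), the α2 subunit, was at 0.0374, 0.108 and 0.0621 FPKM in WT control TA and at 0.844 and 0.680 FPKM in the libraries labelled skmNrip1-/-. Both of the latter lay above every WT control library, as was found for 14.3% of all 17015 rows. The ratio of group means was 11.0. The corresponding fragments at the longest transcript were 5.97, 18.9 and 9.93 in WT control TA, and 109.8 and 105.0 in the libraries labelled skmNrip1-/-. Chrna2 was under the minimum and was not tested with the other genes. Without the minimum, where 0.229% of 17015 rows were called higher, its log2 fold change was 2.36 (95% confidence interval 1.74 to 2.99), and it was called higher (adjusted p = 0.0438 from limma). Leaving out any 1 library in that fit ended the call, with log2 fold changes from 2.23 to 2.52 and adjusted p from 0.0605 to 0.276.

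Chrna10 (ENSMUSG00000066279, chromosome 7, 102111266 to 102116828, minus strand), the α10 subunit, was at 1.27, 1.31 and 1.33 FPKM in WT control TA and at 1.19 and 2.60 FPKM in the libraries labelled skmNrip1-/-. Replicate 1 lay below and replicate 2 above every WT control library. The log2 fold change was 0.41 (95% confidence interval -0.34 to 1.155, adjusted p = 0.684 from limma), and it was -0.13 without replicate 2 labelled skmNrip1-/-. Chrna10 shares 1025 exonic bases with Art1, an ADP-ribosyltransferase gene on the opposite strand, and 36.9% of the 31-base words of its transcripts also occur in transcripts of other genes, mostly Art1. The library kit is not described as strand-specific, so fragments of the shared bases cannot be told apart. Art1 was at 202 to 255 FPKM across the libraries, 90.6 to 215 times the level of Chrna10. For the other 7 members at most 4.09% of such words were shared with other genes.

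**Figure D2:**
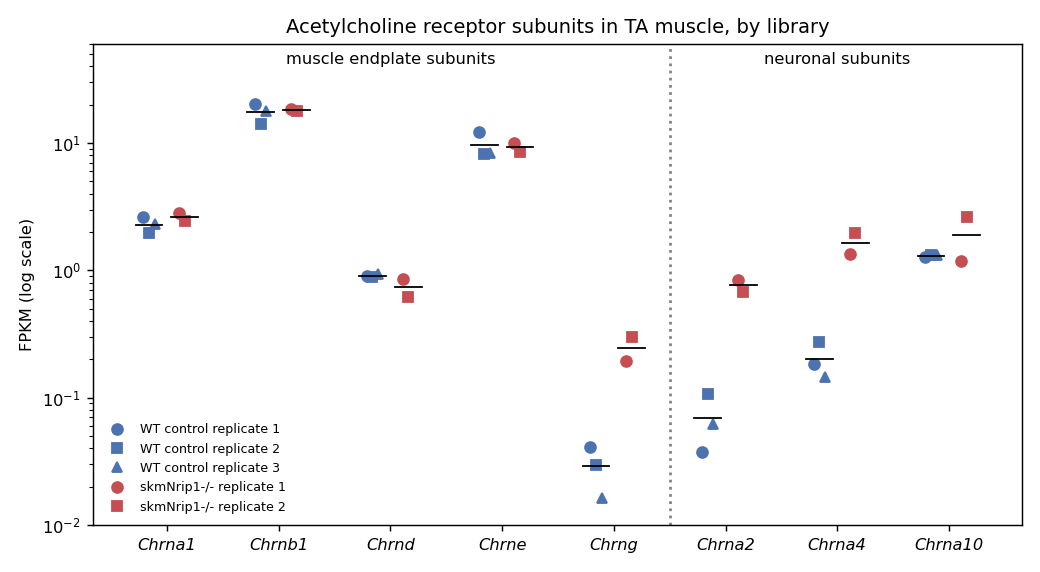
FPKM of the 8 subunits on a log axis, with 1 point per library, blue for WT control and red for the libraries labelled skmNrip1-/-, and black lines at the group means. Red points lie above all blue points for Chrng, Chrna2 and Chrna4, and they overlap or lie just below for the other endplate subunits.

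**Figure D3:**
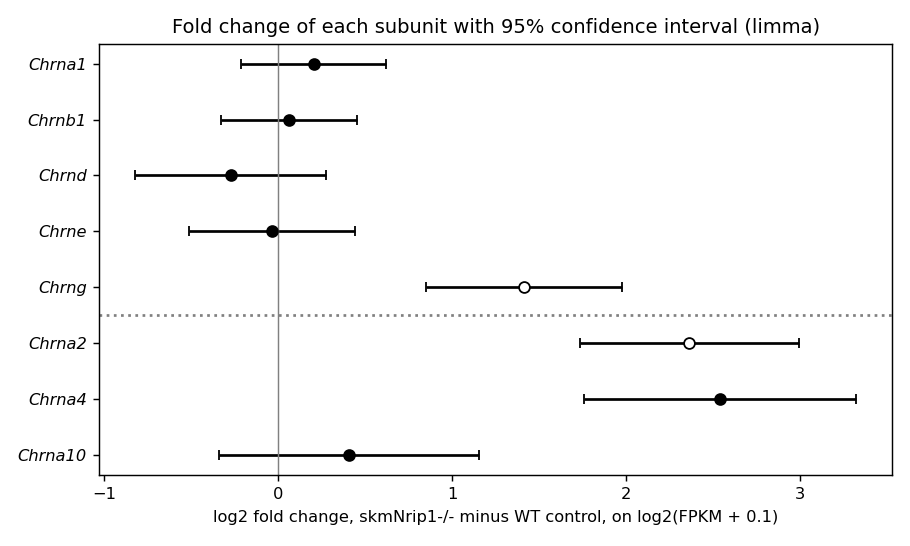
Log2 fold change of each subunit, skmNrip1-/- minus WT control, on log2(FPKM + 0.1), with 95% confidence intervals from limma. Filled points were tested with the 0.5 FPKM minimum, and open points (Chrng, Chrna2) come from the fit without it. The intervals of Chrna1, Chrnb1, Chrnd, Chrne and Chrna10 include 0.

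The order of levels, per length of transcript, shifted within the family. In WT control TA the mean FPKM ran from Chrnb1 through Chrne, Chrna1, Chrna10, Chrnd, Chrna4 and Chrna2 to Chrng, and only Chrna2 and Chrng overlapped as neighbours. In the libraries labelled skmNrip1-/-, Chrna4 (1.65 FPKM) and Chrna2 (0.762 FPKM) stood before Chrnd (0.738 FPKM). There the neighbouring pairs Chrna1 and Chrna10, Chrna10 and Chrna4, and Chrna2 and Chrnd overlapped. The summed FPKM of Chrna4 and Chrna2 was 0.0849, 0.194 and 0.0909 of the Chrna1 level in WT control TA, and 0.771 and 1.08 of it in TA labelled skmNrip1-/-.

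Endplate and neuronal subunits were then set against each other within each library. The summed FPKM of the 5 endplate subunits was 36.2, 25.3 and 29.4 in WT control TA and 32.2 and 29.7 in the libraries labelled skmNrip1-/-, inside the WT control range. The summed FPKM of the 3 neuronal subunits was 1.49, 1.69 and 1.54 in WT control TA and 3.37 and 5.24 in the libraries labelled skmNrip1-/-. The neuronal share of the whole was 3.96%, 6.26% and 4.97% in WT control TA, and 9.48% and 15.02% in TA labelled skmNrip1-/-. The mean log2 ratio of the sums was -4.25 ± 0.35 (SD, n = 3) against -2.88 ± 0.53 (SD, n = 2). The difference was 1.38 (two-sided exact permutation test, p = 0.2, the smallest value this test gives here). Chrna10 made up most of the neuronal sum in WT control TA. Without it, an alternative chosen after the data were seen, the difference was 3.17, and the neuronal share was 0.609% to 1.47% in WT control TA and 6.36% and 8.17% in the libraries labelled skmNrip1-/-.

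**Figure D4:**
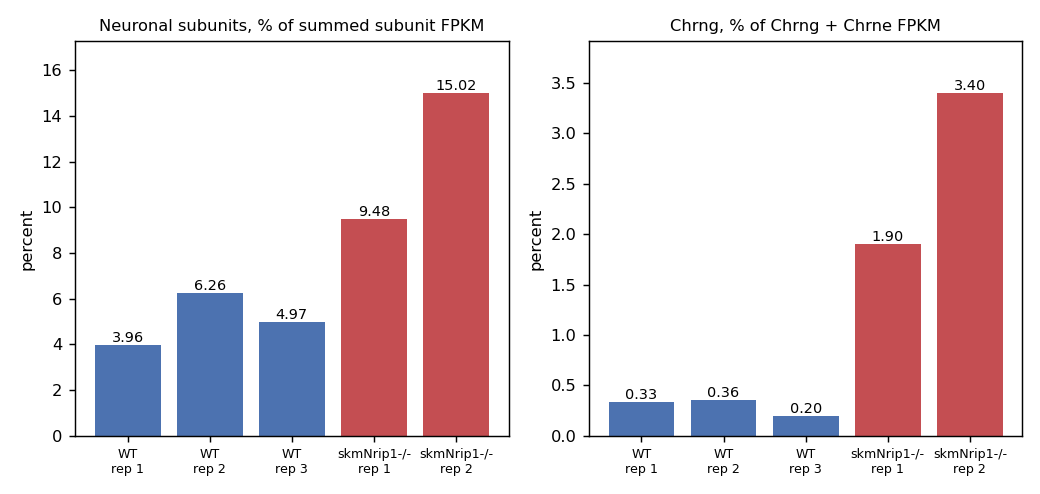
Shares within each library, in percent. Left, Chrna2, Chrna4 and Chrna10 as a share of the summed FPKM of all 8 subunits; right, Chrng as a share of Chrng plus Chrne. Blue bars are WT control and red bars the libraries labelled skmNrip1-/-. In both panels the red bars (9.48% and 15.02%, 1.90% and 3.403%) are above every blue bar.

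The partners of the neuronal subunits were near the bottom of the scale. Chrnb2, the β2 partner of α4 and α2, was at 0.0644, 0.0201 and 0.0936 FPKM in WT control TA and at 0.0238 and 0.0387 FPKM in the libraries labelled skmNrip1-/-, with overlapping groups. The values of Chrna9, the partner of α10, were 0, 0.144 and 0.0662 FPKM in WT control TA and 0.0163 and 0 FPKM in the libraries labelled skmNrip1-/-. Chrna7, which forms homomeric receptors, was between 0.0115 and 0.0627 FPKM in the 5 libraries. The other 5 nicotinic subunits listed (Chrna3, Chrna5, Chrna6, Chrnb3, Chrnb4) were not analysed here. Of the muscarinic receptors, Chrm2 and Chrm3 were at most 0.0653 FPKM in any library.

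Genes that build and maintain the endplate gave the setting for the subunits. Over 6 lists of such genes, 0 genes were called in either direction at the 0.5 FPKM minimum, beside 0.453% of all genes tested. The median log2 fold change of the 7 receptor clustering genes was 0.03. Of the 7, 1 had an unadjusted limma p of 0.05 or less, beside 11.9% of all genes tested. That gene was Musk, the kinase that gathers receptors under the nerve, at 1.09, 1.49 and 1.76 FPKM in WT control TA and 3.49 and 3.30 FPKM in the libraries labelled skmNrip1-/-. Its ratio of group means was 2.35, and it was not called (95% confidence interval of the log2 fold change 0.68 to 1.72, adjusted p = 0.110 from limma). Rapsn, which anchors the receptor, and Dok7, the MuSK adaptor, had log2 fold changes of -0.06 and 0.05. Agrn, which encodes the clustering signal agrin, had the lowest, -0.20. Values are per gene in bulk muscle, so the cells that Agrn RNA came from were not separated.

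Transcripts linked to denervation were examined because γ is a fetal and denervation subunit. Of 12 such genes 10 were tested and 0 were called. An unadjusted limma p of 0.05 or less was found for 3, beside 11.9% of all genes tested. Log2 fold changes were above 0 for 5 and below 0 for 5, with a median of 0.01. The list was not sorted by the direction of each gene in denervated muscle, so these signs and the median give no direction of denervation. Ncam1, an adhesion molecule that spreads along denervated fibers, had the largest change, 1.75 (adjusted p = 0.349 from limma). It was at 4.60, 1.33 and 1.90 FPKM in WT control TA and at 4.35 and 14.2 FPKM in the libraries labelled skmNrip1-/-, so that only replicate 2 stood outside the WT control range. The others with an unadjusted p of 0.05 or less, Dach2 and Trim63, are named after their values were seen. Dach2, a transcriptional corepressor, was at 0.667, 1.95 and 0.652 FPKM in WT control TA and higher in both libraries labelled skmNrip1-/-, at 2.48 and 2.71 FPKM (limma adjusted p = 0.319). Trim63, the ubiquitin ligase MuRF1 of muscle atrophy, had a log2 fold change of -0.42 (limma adjusted p = 0.191) and was lower in both libraries labelled skmNrip1-/- than in every WT control library. Separation of the groups like that of Dach2 and Trim63, in either direction, held for 30.2% of the genes tested. Myog, which encodes myogenin, had the lowest, -0.43 (adjusted p = 0.557 from limma), with 1.66, 1.22 and 1.05 FPKM in WT control TA and 0.868 and 0.994 FPKM in the libraries labelled skmNrip1-/-.

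In the list of neuregulin signaling and ETS factors, which act on endplate promoters, 8 of 10 genes were tested and 0 called, from -0.37 for Erbb2, a neuregulin coreceptor, to 0.32 for Gabpb1, a partner of the ETS factor GABP. Of 7 genes of acetylcholine synthesis, storage and breakdown, 4 were found and tested. None was called, and the median log2 fold change was -0.33. An unadjusted limma p of 0.05 or less was found for 2, Ache and Prima1, beside 11.9% of all genes tested. Both were lower in each library labelled skmNrip1-/- than in any WT control library. Separation in either direction held for 30.2% of the genes tested. Ache, acetylcholinesterase, was at 19.8, 18.0 and 21.2 FPKM in WT control TA and at 16.7 and 13.8 FPKM in the libraries labelled skmNrip1-/-. Prima1, which anchors acetylcholinesterase to membranes, was lowest at -1.151 (adjusted p = 0.273 from limma), and Bche, butyrylcholinesterase, highest at 0.40. For subunit folding and surface delivery, 5 of 9 genes were tested, from -0.44 for Ric3, a chaperone of nicotinic receptors, to 0.29 for Lynx1, a membrane-tethered modulator of nicotinic receptors. For the endplate matrix and cytoskeleton, 8 of 12 genes were tested, from -0.29 for Lama5, a laminin chain, to 0.06 for Utrn, the utrophin of the endplate.

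A last list held neuromuscular genes that the study names in EDL muscle, gastrocnemius muscle or myotubes. They were named there for being higher in Nrip1-deficient samples, so the direction of the list was part of its choice. It was chosen in other samples of the same work and on similar models, with earlier results of these data known. The counts of this list are therefore a description and not a test. Of its 10 genes besides the subunits, 9 had higher values in each library labelled skmNrip1-/- than in any WT control library, a pattern found in 14.3% of all rows. Of 7 tested genes 0 were called, 5 had an unadjusted p of 0.05 or less, beside 11.9% of all genes tested, and the median log2 fold change was 0.62. Pde4a, a cyclic AMP phosphodiesterase, had the lowest log2 fold change of the 7, at 0.26. Unc13c, a priming factor of synaptic vesicles, lay under the minimum at 0.0118 to 0.0712 FPKM in WT control TA and 0.891 and 0.910 FPKM in the libraries labelled skmNrip1-/-. Without the minimum Unc13c was called higher (adjusted p = 0.0198 from limma).

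**Figure D5:**
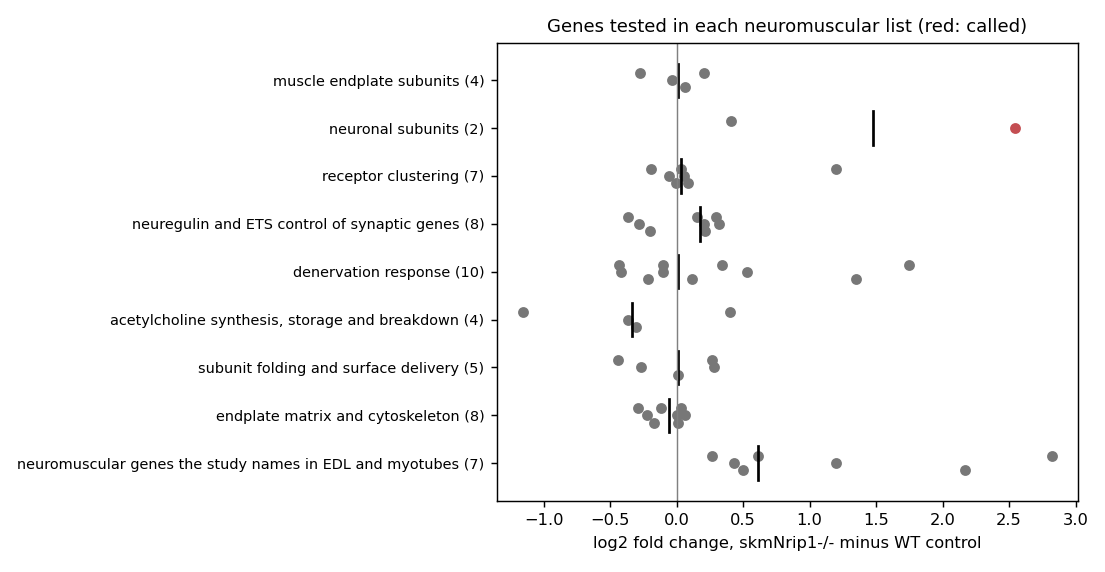
Log2 fold change, skmNrip1-/- minus WT control, of the genes tested in each list, with the number tested in brackets, black lines at the medians and called genes in red. Chrna4 is the only red point, and it passed the 0.5 FPKM minimum through the libraries labelled skmNrip1-/-. The 4 endplate subunits tested lie between -0.27 and 0.20. Genes under the minimum, among them Chrng, Chrna2 and Unc13c, are not shown.

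TA muscle also holds nerve, Schwann, satellite and other cells, and in bulk RNA fewer cells of a type and less RNA per cell cannot be told apart. Of 8 neuronal markers 3 were found (Tubb3, Stmn2, Prph), none at 0, and their sum was 1.93 to 2.50 FPKM in WT control TA and 1.97 and 3.55 FPKM in the libraries labelled skmNrip1-/-. Replicate 2 labelled skmNrip1-/-, the library with the high Chrna10 and Ncam1, was the higher one. Its Prph was at 1.85 FPKM, against 0.388 to 1.04 FPKM in WT control TA and 0.324 FPKM in replicate 1 labelled skmNrip1-/-. Tubb3 lay inside the WT control range in both libraries labelled skmNrip1-/-, at 0.561 and 0.619 FPKM. Stmn2 was at 1.08 FPKM in both, above every WT control library. The sum of the 8 Schwann cell markers, all found and none at 0, was 28.6 to 42.1 FPKM in WT control TA and 35.7 and 25.5 FPKM in the libraries labelled skmNrip1-/-. In that same replicate 2 it was the lowest of the 5 libraries. The 4 satellite cell markers summed to 5.99 to 7.27 FPKM in WT control TA and to 4.59 and 4.68 FPKM in the libraries labelled skmNrip1-/-. Slow fiber markers, 5 of 5 found, summed to 14.2 to 22.1 FPKM against 58.9 and 43.8 FPKM. Myl2 alone separated the groups, at 1.85 to 9.68 FPKM in WT control TA and 42.1 and 33.6 FPKM in the others. Myh7, Tnni1, Tnnt1 and Tnnc1 each overlapped between the groups. In replicate 1 labelled skmNrip1-/-, Myh7, Tnnt1 and Tnnc1 were above every WT control library. In replicate 2 labelled skmNrip1-/-, Myh7, Tnni1 and Tnnt1 were below every WT control library. Markers of red blood cells, 5 of 5 found, summed to 511 to 764 FPKM in WT control TA and to 996 and 827 FPKM in the libraries labelled skmNrip1-/-. The fiber sum given above was lower in both of these libraries than in any WT control library. Sums for endothelium, macrophages, adipocytes and fibroblasts overlapped between the groups. The part of these cell types in the subunit values was not tested.

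The gene most like each tested subunit over the 5 libraries was found by Pearson r on log2(FPKM + 0.1) among 12148 genes. These libraries share group, depth and scaling, so r is given as a description. It was 0.9996 for Chrna4 and Magi1, a scaffold protein of cell junctions, at 0.603, 0.651 and 0.581 FPKM in WT control TA and 0.877 and 0.956 FPKM in the libraries labelled skmNrip1-/-. At r of at least 0.99, 27 genes matched Chrna4 and 1 matched Chrna10. For Chrna1 the closest gene was Art1, for Chrnb1 Nop10, for Chrnd Smc4, for Chrne Eif2s2 and for Chrna10 Gm11560, with r of at least 0.9939.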

How the data were processed

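TA muscle RNA from 3 WT control and 2 skmNrip1-/- libraries was sequenced by the authors after NEBNext Ultra library preparation. Per the labels and methods, reads were quantified with Salmon 1.10.2 on mm10 and summarized with tximport, and the authors deposited FPKM. The annotation release and the FPKM formula are not given in the sources used here. The deposited log2 fold change and adjusted p-value columns, from the authors' DESeq2 1.44.0 comparison, were not used.

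Libraries were grouped by their labels. Replicate labels do not say whether libraries are separate mice, so p-values measure the spread between these libraries. limma 3.58.1 in R 4.3.3 (eBayes with trend) was run on log2(FPKM + 0.1), a scale that understates changes of low genes, with Benjamini-Hochberg adjustment over genes whose mean reached 0.5 FPKM. Ratios within libraries were compared by exact permutation (scipy 1.17.1). The limma step was tested on simulated data. Positions, transcripts and overlaps came from GENCODE M21 (GRCm38, as mm10). Fragments were estimated from the step between low FPKM of genes with 1 transcript over 1500 bases and assume the longest transcript. They cover counting error only and are estimates, not counts.

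Members and lists were chosen with earlier results of these data known. Named genes are all members, all other nicotinic rows found, called genes of each list, its largest and smallest tested change, and the closest gene by r. The largest change of 1 list is not reported here. A few others were named after their values were seen (Rapsn, Dok7, Unc13c, Chrm2, Chrm3, Myl2, Myh7, Tnni1, Tnnt1, Tnnc1, Prph, Tubb3, Stmn2, Ache). Alternatives were the pseudocount, the minimum, the scaling, the eBayes settings, a replicate block and leaving out each library.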

Additional observations from a re-analysis of the deposited data

How the results depend on the processing

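The deposited FPKM and few libraries set the limits. The count of genes called over the table, 55, was 88 after rescaling to TPM (29 higher and 59 lower, with the median log2 fold change of all genes at -0.29), 25 with eBayes without trend and 22 with the replicate block. It ranged from 9 to 66 when each library was left out in turn, and was 27, 19, 15 and 9 without WT control replicate 1, WT control replicate 3, and skmNrip1-/- replicates 1 and 2. The count of subunits called, 1, was 0 with a pseudocount of 0.01, 0 with a minimum mean of 1 FPKM (which removed Chrna4 from the test), 2 with no minimum (Chrna2 and Chrna4) and 0 with the replicate block. It was 0 to 0 when each library was left out.

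Chrna4 kept its direction in 13 alternatives, from 1.13 to 2.997 on the log2 scale, with adjusted p from 0.0241 to 0.363 from limma. With the replicate block it stood at 2.41 (limma adjusted p = 0.169), and with a pseudocount of 0.01 the adjusted p was 0.0550. Chrna2 without the minimum was above 0 in 9 settings, 8 of them chosen after seeing the data, and was called in 2. Chrng was above 0 in the same 9 and called in 0, with adjusted p from 0.0862 to 0.446 from limma. A lone library left in a group was assumed to vary like the others.

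Signs of uncalled subunits turned in some settings. Rescaled to TPM, Chrna1 was at -0.083 and Chrnb1 at -0.24. Chrne and Chrnd kept their sign there, at -0.33 and -0.53. This rescaling divides by the summed FPKM of the library. The sum was 1144714, 1031290 and 969144 in WT control TA, and 1288038 and 1286254 in the libraries labelled skmNrip1-/-. The ranges in brackets below are from leaving out each library in turn. Without WT control replicate 2, Chrnb1 was at -0.079 (range -0.079 to 0.18). Without WT control replicate 1 or skmNrip1-/- replicate 2, Chrne was at 0.15 and 0.07 (range -0.15 to 0.15). Without skmNrip1-/- replicate 2, Chrna10 was at -0.13 (range -0.13 to 0.94). Why the sums differ, and why signs turned without a library, was not tested. Within libraries, the neuronal to endplate difference stayed between 0.999 and 3.17 and the Chrng to Chrne difference between 1.45 and 3.62, above 0 throughout; with the replicate block, over the pairs with the same number, the latter was 2.91. The groups share replicate numbers 1 and 2, but deviations of same-numbered libraries correlated at only 0.065 and 0.095, so the numbers were not taken as pairs. Chrng in WT control TA rests on about 11.0 fragments in all.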
